A study of Mus musculus with 8 samples.

Results

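The synaptic vesicle and release machinery was followed as 42 genes, taken by symbol from the GENCODE M21 mouse annotation among the 49585 gene identifiers measured. All 42 were found, each under 1 identifier, and all 42 passed the filter of a mean of 1 FPKM (fragment counts scaled by transcript length and by the mapped fragments of the library) that set which genes were tested. Polyadenylated RNA was taken from lumbar dorsal horn (segments 4 to 6) of adult C57BL/6J mice. There were 4 libraries from wild-type mice and 4 from miR-96 knock-out mice, and the series' design text gives 4 mice per genotype. The sources used here give neither the sex of the mice nor how the knock-out was made. The title of the series places miR-96 upstream of spinal voltage-gated sodium channels and of allodynia, in which light touch hurts, and the release genes are not its stated subject.

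Neurotransmitter is stored in synaptic vesicles, which dock and are primed at the active zone, a protein scaffold of the presynaptic membrane. Calcium entry then triggers fusion through the SNARE proteins, and the vesicle membrane is taken back by endocytosis. In the dorsal horn this machinery serves the terminals of excitatory and inhibitory interneurons, and most of its RNA lies in their cell bodies, whereas the cell bodies of incoming sensory fibres lie in the dorsal root ganglia. The 42 genes were divided by role into 9 genes of the active-zone scaffold and vesicle priming, 14 of the vesicle membrane and surface, 8 of the calcium-sensor families (synaptotagmins, Doc2 and rabphilin, not all of which bind calcium), 8 SNAREs and fusion factors, and 3 of endocytosis. The scaffold genes are long, with coding transcripts of 4800 to 20084 nt (median 8796 nt, longest annotated protein-coding transcript). Those of the vesicle group span 1556 to 9101 nt (median 3608 nt).

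Mir96 itself (GRCm38 chromosome 6, 30169446 to 30169551, minus strand), the gene knocked out, was listed at 0 FPKM in all 8 libraries, which checks nothing, since libraries of polyadenylated long RNA do not measure mature microRNAs. The estimated depth was 32000000 to 43100000 fragments per library. Wild type replicate 1 stood apart, with a median correlation of 0.96 with the other 7 libraries, against 0.983 to 0.987 for each of those. It held the lowest value of the 8 libraries in 30 of the 42 members and the highest in 5. Its summed FPKM of blood markers was 199, against 5.96 to 39.3 in the other libraries, and that of oligodendrocyte markers was 15670 against 9737 to 11920. The summed general neuronal markers lay at 3846 to 4530 FPKM in wild type and 3722 to 3967 in knock-out, with wild type replicate 1 highest. Markers of excitatory and inhibitory neurons were present in every library. Examples are the vesicular glutamate transporter Slc17a6 at 96.7 to 136 FPKM and the vesicular GABA transporter Slc32a1 at 73.2 to 95.2 FPKM. Motor and cholinergic markers summed to 14.6 to 62.8 FPKM in wild type and 16.7 to 75.9 in knock-out. The sums of Schwann cell markers were 520 to 1074 and 456 to 1063 FPKM. The sums of other lists varied between libraries and overlapped between the genotypes. All 6 meningeal and fibroblast markers had a higher mean in knock-out, 0 at an unadjusted limma p under 0.05. Their median log2 fold change was 0.28, or 0.22 without wild type replicate 1 (summed FPKM 69.8 to 83.5 in wild type and 69.6 to 138 in knock-out). For example, Dcn was at 19.8 to 26.0 FPKM in wild type and 44.4, 22.4, 36.7 and 21.2 in knock-out replicates 1 to 4. Of the 9 markers of excitatory dorsal horn neurons, 7 had a lower mean (median -0.21, or -0.068 without wild type replicate 1; summed FPKM 583 to 806 and 494 to 704). Inhibitory neuron markers were split, 5 lower and 4 higher (median -0.16, or -0.14 without that library). At an unadjusted limma p under 0.05, 2 of these 9 were lower, as were 1.83% of all genes tested. General neuronal markers were also split, 6 lower and 4 higher (median -0.13, or -0.093 without it). At that p 1 of these 10 was higher, as were 3.69% of all genes tested. Of the 8 oligodendrocyte markers, 7 had a lower mean (median -0.12, or -0.057 without that library). All 5 motor and cholinergic markers tested had a higher mean (median 0.24, or -0.052 without it). None of the markers of the 14 cell-type lists was at 0 in all 8 libraries. The part of these differences in the results below was not tested beyond leaving that library out. In bulk tissue, fewer cells of a type and less RNA per cell cannot be told apart.

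A microRNA binds mainly through its seed, bases 2 to 8, to matching letters in the 3′ untranslated region (UTR) of a messenger RNA, and the usual outcome is a lower level of that RNA. The longest annotated 3′ UTR of each member was searched on the transcript strand for GTGCCAA, which pairs with the seed, and for TGCCAAA, which pairs with bases 2 to 7 and ends in A. The 8-base match GTGCCAAA joins both. Matches were found in 12 of the 42 members (28.6%), 18 in all, among them 4 of the 8-base form. Of the 13054 tested protein-coding genes with a 3′ UTR of at least 50 nt, 20.5% held a match, and the share depended on UTR length, from 6.76% for UTRs of 50 nt to under 1000 nt to 55.9% at 4000 nt or more. Of the members with a UTR of at least 4000 nt, 5 of 9 held a match. The sequences below are miR-96-5p (RefSeq, GRCm38.p6, chr6:30169506-30169528, minus strand, 5′ to 3′, seed in capitals) and sites of the 3 members with the lowest p of the list (Unc13c and Rab3c with 8-base matches, and Pclo), and of Syn3, the member whose genotypes did not overlap (GENCODE M21 transcripts, 5′ to 3′, matched bases in capitals).

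miR-96-5p: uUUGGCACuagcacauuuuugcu
Unc13c: taaatgttccatgaaGTGCCAAAatatgat
Rab3c site 1: caactcttaacctctGTGCCAAAtgccaag
Rab3c site 2: gatagcaaagacttaGTGCCAAAttagaag
Pclo: aaagatgctgccagtGTGCCAAgtttgcag
Syn3: gaatctccccagaccGTGCCAAcagcgcca

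The 3′ UTR of Rab3c, 7628 nt, was the longest of the list, and the matched bases of the 8-base sites shown lie at chr13:110060077-110060084 and chr13:110055217-110055224 on the minus strand of GRCm38. The deposited locus of Rab3c did not equal that of GENCODE M21, so the transcript models used by the authors may differ from the one searched. The Unc13c site is at chr9:73480668-73480675 (minus strand), 195 nt into a UTR of 1448 nt. The Pclo site is at chr5:14861592-14861598 (plus strand) and the Syn3 site at chr10:86294528-86294534 (minus strand), 94 nt into the UTR of the transcript used. Syn3 has 6 annotated transcripts, and the gene runs on along that strand to position 86055125, far beyond this site. Whether its other transcripts hold the site was not examined. The other members with matches were Sv2c, Stxbp5, Unc13a, Napb, Erc2, Doc2b, Syngr3 and Amph. Members with a match had a median log2 fold change (knock-out minus wild type, on log2(FPKM + 1)) of 0.29, with 10 of 12 higher in knock-out. Those without had a median of 0.020, with 17 of 30 higher. Over the 13054 genes the medians were 0.061 with a match and -0.0045 without. Higher in knock-out were 1726 of the 2674 genes with a match and 5089 of the 10380 without. Genes with a match also have longer transcripts, with medians of 7338 and 4165 nt in the members and 4589 and 2959 nt in the 13054 genes. After the trend on transcript length was taken out of each library, the medians were 0.036 and -0.039 in the members and -0.011 and -0.0061 in the 13054 genes. Without wild type replicate 1 they were 0.12 and -0.070 in the members and 0.019 and -0.010 in the 13054 genes. These are descriptions of letters in a window, not of bound sites.

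FPKM are scaled by transcript length, so levels can be set side by side between genes, but only roughly. The accuracy of the authors' transcript models is 1 limit. Another is that the dependence of FPKM on transcript length differed between libraries (slopes below), which bears on comparing long with short genes. The members ran from a mean of 3.40 FPKM over the 8 libraries in Doc2b to 1109 FPKM in Cplx1, and 14 of the 42 stood above the 95th percentile of the 15061 genes tested. Median levels by role were 187 FPKM for SNAREs and fusion factors, 119 for endocytosis, 116 for the vesicle membrane and surface, 57.5 for calcium sensors and 18.4 for the active-zone scaffold. Cplx1, complexin 1, which clamps and promotes SNARE-driven fusion, was highest, followed by the SNARE Snap25 (874 FPKM), the ATPase Nsf that takes used SNARE complexes apart (771), the vesicle SNARE Vamp1 (714) and the vesicle membrane protein synaptophysin, Syp (608). The exons of Syp share 16.8% of their bases with an antisense gene on the opposite strand, and strand use in counting is not given. Closely related genes differed widely in level. Complexin 2, Cplx2, was at 75.1 FPKM against 1109 for Cplx1. Syt2, a fast calcium sensor of release, was at 292 FPKM and Syt1, the sensor best known from forebrain, at 79.3. Syt11, which does not bind calcium, was at 346 FPKM. Vamp2, the main vesicle SNARE of forebrain, lay at 385 FPKM, below Vamp1. Among the synapsins, which tether vesicles in the reserve pool, Syn1 was at 111 FPKM, Syn2 at 109 and Syn3 at 7.81. Among the SV2 vesicle glycoproteins Sv2a was at 318 FPKM, Sv2c at 121 and Sv2b at 37.4. Unc13a, which encodes the priming factor Munc13-1, was at 98.7 FPKM and stood far above the other scaffold members, Unc13c, Rims1, Bsn, Erc2, Pclo, Rims2, Unc13b and Erc1, which lay at 20.5, 20.5, 19.5, 18.4, 9.60, 9.30, 8.35 and 5.43 FPKM.

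**Figure D1:**
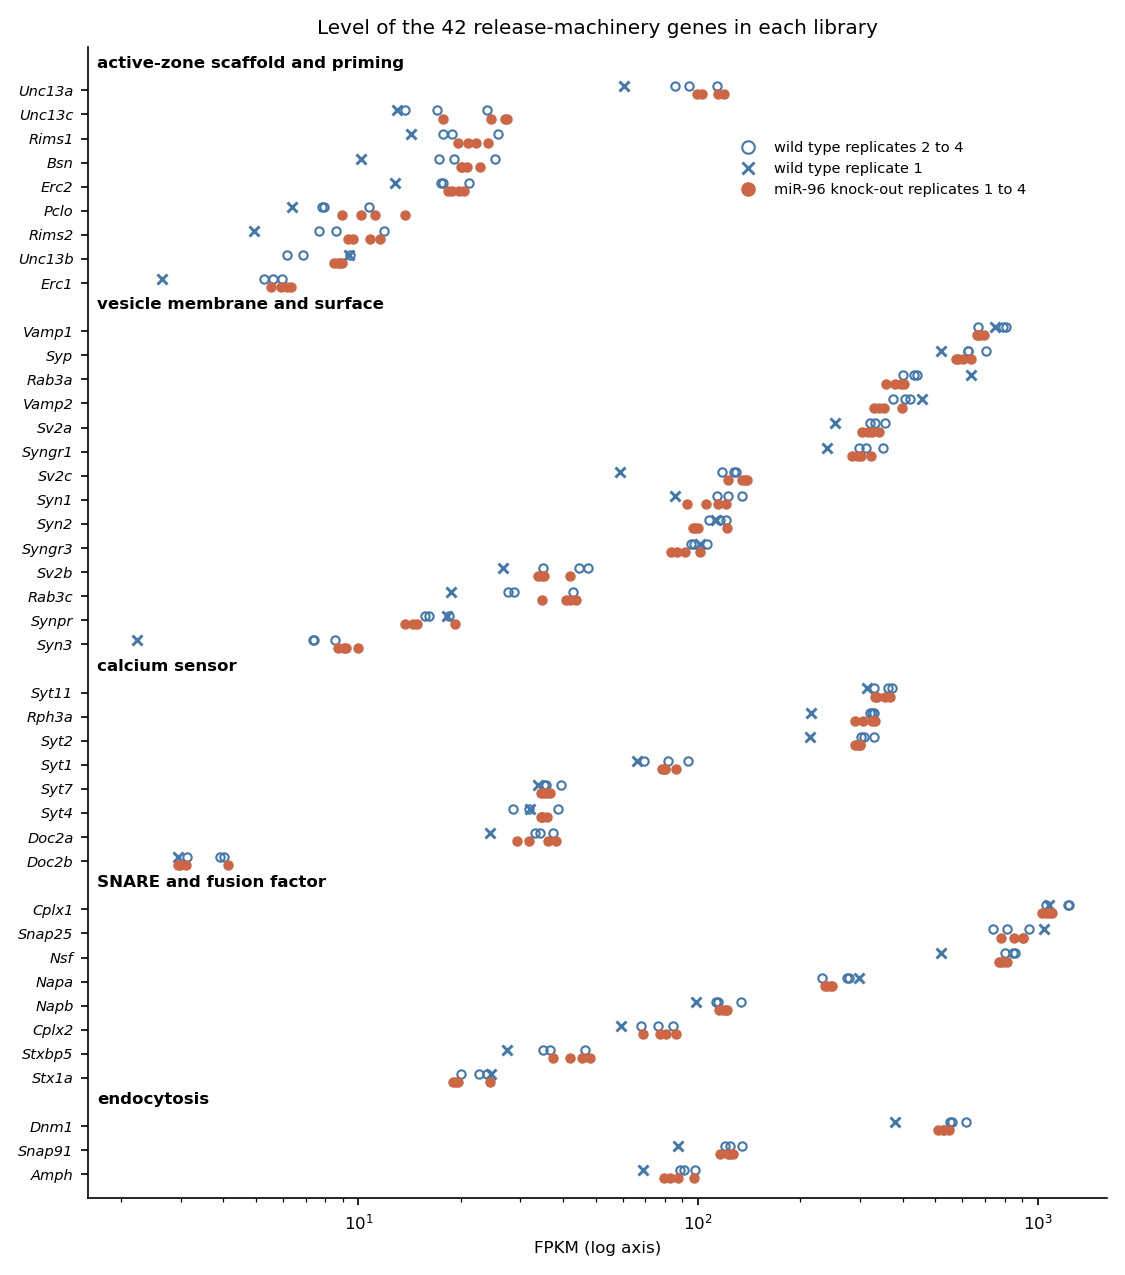
FPKM of each of the 42 members in each of the 8 libraries, on a log axis, grouped by role and ordered by mean level. Open blue circles are wild type replicates 2 to 4, blue crosses wild type replicate 1 and filled orange circles the 4 knock-out libraries; wild type replicate 1 is lowest in 30 members, and the members run from means of 3.40 to 1109 FPKM.

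No gene of the series passed the test of knock-out against wild type (limma on log2(FPKM + 1), Benjamini-Hochberg adjusted p under 0.05), so 0 of 42 members and 0 of 15061 genes (0.0%) were called. At an unadjusted limma p under 0.05 there were 3 of 42 members, Unc13c, Rab3c and Pclo, beside 5.52% of all genes tested. All 3 were higher in knock-out, as were 3.69% of all genes at that p, and 0 were lower, as were 1.83%. The count depended on single libraries. Without wild type replicate 1 none of the 3 had an unadjusted p under 0.05. Syn3 alone, 1 of 42, then did, beside 3.74% of all genes tested. Without wild type replicate 4 there were 13 members, beside 20.9% of all genes tested. With estimated library weights the adjusted count itself was 8 members and 1627 genes. A higher mean in knock-out was found in 27 of the 42 members, beside 53.1% of all genes tested, or in 17 without wild type replicate 1, beside 50.4%. Values of single members below therefore describe these libraries, with limma standard errors (SE) and p-values adjusted over all genes tested.

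All 9 genes of the active-zone scaffold and priming had a higher mean level in knock-out, where 53.1% of all genes tested did. Their log2 fold changes ran from 0.14 to 0.51 with a median of 0.30, against a median of 0.014 over all genes tested. None passed the adjusted test. Unc13c (chromosome 9, 73479422 to 73968966), which encodes Munc13-3, a priming factor best known from the cerebellum, had the lowest p of the 42. In wild type replicates 1 to 4 it was at 13.0, 13.7, 17.03 and 23.9 FPKM and in knock-out replicates 1 to 4 at 27.5, 27.0, 17.7 and 24.5. Knock-out replicate 3 lay among the wild-type libraries, and the other 3 knock-out libraries lay above all of them. This gave a log2 fold change of 0.51 with an SE of 0.20 (limma adjusted p = 0.62), and later parentheses give the fold change and SE in that order.

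Pclo (chromosome 5, 14514918 to 14863459) encodes piccolo, a giant scaffold protein that organises the active zone together with bassoon. It was at 6.39, 7.92, 7.79 and 10.8 FPKM in wild type and 13.7, 11.2, 8.93 and 10.2 FPKM in knock-out (0.39, SE 0.16, limma adjusted p = 0.62). Wild type replicate 4 overlapped the lower knock-out libraries. Bassoon itself, Bsn (chromosome 9, 108096022 to 108190384), was at 10.2, 19.1, 17.3 and 25.3 FPKM in wild type and 20.8, 22.8, 20.2 and 20.02 in the knock-out libraries (0.28, SE 0.22). Its highest library was thus wild type replicate 4 and its lowest wild type replicate 1, with all knock-out libraries between them. The same order of the wild-type libraries, replicate 1 lowest and replicate 4 highest, was found in the RIM genes, whose proteins link vesicles and calcium channels to the release site. Rims1 (chromosome 1, 22286251 to 22805994) was at 14.3, 17.7, 18.9 and 25.8 FPKM in wild type and 19.6 to 24.1 in knock-out (0.20, SE 0.16). Rims2 (chromosome 15, 39198261 to 39684372) was at 4.93, 7.65, 8.57 and 11.9 FPKM in wild type and 9.32 to 11.6 in knock-out (0.34, SE 0.20).

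The ELKS scaffold genes Erc1 and Erc2 had log2 fold changes of 0.30 (SE 0.19) and 0.18 (SE 0.13). Erc1 was at 2.63, 5.28, 5.60 and 5.95 FPKM in wild type and 5.54 to 6.35 in knock-out, so that wild type replicate 1 alone lay far from the rest. Its exons share 11.8% of their bases with an antisense gene on the opposite strand, and strand use in counting is not given in the sources used here. Unc13a (chromosome 8, 71624417 to 71671757) was at 60.5, 94.1, 85.5 and 114 FPKM in wild type and 103, 114, 99.2 and 119 in knock-out (0.33, SE 0.17). Only wild type replicate 4 reached the knock-out range. Unc13b, which encodes Munc13-2, went against that order of wild-type libraries, with 9.41 FPKM in replicate 1 and 9.44 in replicate 4 but 6.15 and 6.87 in replicates 2 and 3. The 4 knock-out libraries lay close together at 8.49 to 8.92 FPKM (0.14, SE 0.14).

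**Figure D2:**
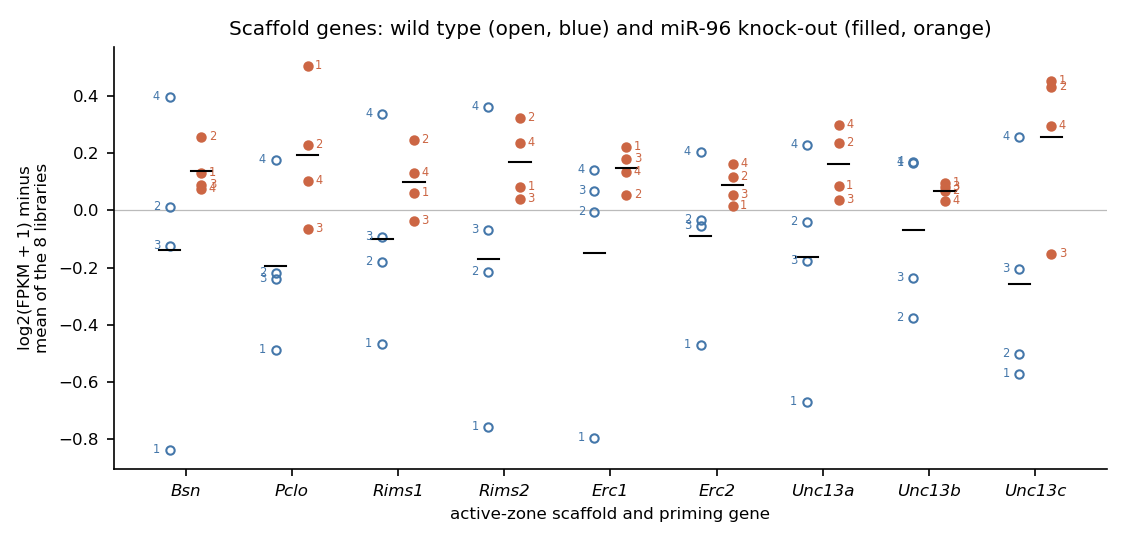
Level of the 9 active-zone scaffold and priming genes in each library, as log2(FPKM + 1) minus the mean of the 8 libraries for that gene; numbers are replicates, open blue circles wild type, filled orange circles knock-out, and black bars the genotype means. Wild type replicate 1 is lowest in 8 of the 9 genes, and wild type replicate 4 is highest of all 8 libraries in 5.

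As a group, the scaffold genes had a mean log2(FPKM + 1) of 3.52, 3.89, 3.94 and 4.31 in wild type replicates 1 to 4 and 4.24, 4.28, 4.09 and 4.23 in knock-out replicates 1 to 4. The genotype means were 3.91 ± 0.33 and 4.21 ± 0.084 (SD, n = 4 each), so the difference of 0.30 was below the SD of the wild-type libraries. Without wild type replicate 1 the median log2 fold change fell from 0.30 to 0.14. All 9 genes still had a higher mean in knock-out, from 0.043 for Bsn to 0.41 for Unc13c, where 50.4% of all genes tested did. Rims1, Rims2, Erc1, Erc2, Unc13a and Unc13b were then at 0.079, 0.14, 0.081, 0.048, 0.16 and 0.22. Without wild type replicate 4 the median was 0.46 and 6 of the 9 had an unadjusted limma p under 0.05, where 20.9% of all genes tested did. With the length trends removed the median was 0.056, with 6 of 9 higher, beside 50.3% of all genes tested. Bsn (-0.072), Pclo (-0.0059) and Unc13b (-0.19) were then below 0. Unc13c (0.29) and Rims2 (0.27) stayed highest, and Rims1, Erc1, Erc2 and Unc13a were at 0.056, 0.072, 0.040 and 0.068. No scaffold gene passed the adjusted test in those 3 analyses.

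In the vesicle membrane and surface group, 5 of 14 genes had a higher mean in knock-out and 9 a lower one, with a median log2 fold change of -0.054. These were 3 and 11, with a median of -0.12, without wild type replicate 1. Over all genes tested 53.1% were higher, or 50.4% without that library. None of the 14 passed the adjusted test, and 1, Rab3c, had an unadjusted limma p under 0.05, beside 5.52% of all genes tested. The group held the lowest and the highest fold change of the 42 members. Rab3a (chromosome 8, 70754679 to 70758677), the main small GTPase of synaptic vesicles, was at 637, 440.5, 432 and 401 FPKM in wild type and 379.7, 396, 404 and 358 in knock-out. Wild type replicate 1 lay far above the others, and of the knock-out libraries only replicate 3 reached the lowest wild-type value. Its log2 fold change was -0.29 (SE 0.14, limma adjusted p = 0.62), or -0.14 without wild type replicate 1. Rab3c (chromosome 13, 110054187 to 110280996), a related GTPase, differed in the other direction. Its levels were 18.7, 27.5, 28.8 and 42.8 FPKM in wild type and 40.8, 43.7, 34.7 and 41.8 in knock-out (0.49, SE 0.20, limma adjusted p = 0.62). Wild type replicate 4 lay among the knock-out libraries. The fold change was 0.30 without wild type replicate 1 and 0.27 with the length trend removed.

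Both vesicle SNAREs had lower means in knock-out. Vamp2 (chromosome 11, 69088490 to 69092384) was at 455, 422, 374 and 406 FPKM in wild type and 330.1, 341, 399.8 and 354 in knock-out (-0.22, SE 0.10, limma adjusted p = 0.62), with knock-out replicate 3 inside the wild-type range. Vamp1 (chromosome 6, 125215551 to 125245964) was at 749, 809, 788 and 665 FPKM in wild type and 661 to 695 in knock-out (-0.15, SE 0.095), and here wild type replicate 4 lay inside the knock-out range. The synapsins had log2 fold changes of -0.061 (Syn1, SE 0.14, or -0.19 without wild type replicate 1) and -0.14 (Syn2, SE 0.095). Syn3 (chromosome 10, 86055125 to 86498896) was the single member in which every knock-out library lay above every wild-type library, a separation found in 1.91% of all genes tested; 0 of the 42 were separated the other way, against 1.12% of all genes. It is described here because of that separation, outside the rule for named genes. Its levels were 2.23, 7.35, 7.40 and 8.54 FPKM in wild type and 9.95, 9.08, 8.73 and 9.17 in knock-out (0.58, SE 0.30, limma adjusted p = 0.62). Wild type replicate 1 lay far below the rest, and without it the fold change was 0.23. With all libraries and the length trend removed it was 0.55. The exons of Syn3 share 14.1% of their bases with Timp3 on the opposite strand. The other members of the group, Syp, Synpr, Syngr1, Syngr3, Sv2a, Sv2b and Sv2c, had log2 fold changes between -0.14 and 0.36, and none had an unadjusted p under 0.05.

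Of the 8 genes of the calcium-sensor families, 6 had a higher mean in knock-out (median log2 fold change 0.067), but 2 without wild type replicate 1 (median -0.047). The share over all genes tested was 53.1%, or 50.4% without that library. With all libraries the fold changes of the 8 ran from -0.070 to 0.098. None had an unadjusted limma p under 0.05, beside 5.52% of all genes tested. Syt2 (chromosome 1, 134646677 to 134762593) was at 214, 329, 307 and 302 FPKM in wild type and 289 to 300.3 in knock-out (0.058, SE 0.13), and without wild type replicate 1 its fold change was -0.079. Syt1 was at 65.9 to 93.5 FPKM in wild type and 78.2 to 86.1 in knock-out (0.076, SE 0.11, or 0.0032 without wild type replicate 1). Syt4, an atypical synaptotagmin, was at 28.6 to 38.8 and 34.5 to 36.0 FPKM (0.098, SE 0.097). Its exons share 14.5% of their bases with an antisense gene on the opposite strand. Syt11 had a log2 fold change of 0.014 (SE 0.091). Rph3a, rabphilin, a partner of Rab3 on the vesicle, was at 215, 325, 321 and 329 FPKM in wild type and 290.2 to 333 in knock-out (0.094, SE 0.14), and without wild type replicate 1 its fold change was -0.055. Of the remaining sensors Syt7, Doc2a and Doc2b, Doc2a shares 39.4% of its exon bases with Ino80e on the opposite strand and its value is uncertain for that reason.

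SNAREs and fusion factors were split evenly, 4 higher and 4 lower in knock-out, with a median log2 fold change of 0.014. Without wild type replicate 1 the median was -0.049, with 3 higher. The share of higher genes over all genes tested was 53.1%, or 50.4% without that library. No member of the group had an unadjusted limma p under 0.05, beside 5.52% of all genes tested. The most different was Stxbp5 (chromosome 10, 9755547 to 9901079), tomosyn, which holds target SNAREs back from vesicle SNAREs and whose coding transcript of 8825 nt was the longest of the group. It was at 27.4, 36.8, 35.02 and 46.6 FPKM in wild type and 45.5, 48.2, 37.5 and 41.9 in knock-out (0.26, SE 0.15, limma adjusted p = 0.62). Its fold change was 0.13 without wild type replicate 1 and 0.033 with the length trend removed. Napa, alpha-SNAP, the adaptor of Nsf, was at 297, 275, 278 and 232 FPKM in wild type and 236 to 248 in knock-out (-0.15, SE 0.095). The target SNARE gene Stx1a was at 20.1 to 24.6 and 19.0 to 24.4 FPKM (-0.14, SE 0.11). Cplx1 was at 1057 to 1234 FPKM in wild type and 1031 to 1101 in knock-out (-0.10, SE 0.098, or 0.019 with quantile normalization). Cplx2 was at 59.5 to 84.3 and 68.9 to 86.1 FPKM (0.13, SE 0.12, or 0.040 without wild type replicate 1). Nsf stood out for 1 library, with 518 FPKM in wild type replicate 1 against 768 to 856 in the other 7.

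For endocytosis, Dnm1, the neuronal dynamin that cuts vesicles from the membrane, was at 381, 560.5, 553 and 614 FPKM in wild type and 509 to 547 in knock-out (0.026, SE 0.14). Snap91, the clathrin adaptor AP180, had a log2 fold change of 0.085 (SE 0.13) and Amph, amphiphysin, one of 0.013 (SE 0.12). Wild type replicate 1 was the lowest of the 8 libraries in all 3, and without it the fold changes were -0.12, -0.047 and -0.091.

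The scaffold and vesicle groups were then set against each other. The median log2 fold change of the 9 scaffold genes was 0.35 above that of the 14 vesicle genes. Per library, the mean log2(FPKM + 1) of the scaffold genes minus that of the vesicle genes was -3.16, -3.17, -3.03 and -2.70 in wild type replicates 1 to 4 and -2.68, -2.68, -2.93 and -2.68 in knock-out replicates 1 to 4. The means were -3.02 ± 0.22 and -2.74 ± 0.13 (SD, n = 4 each). Wild type replicate 4 lay near the knock-out libraries, and knock-out replicate 3 lay between wild type replicates 3 and 4, so the genotypes overlapped. On this measure wild type replicate 1 had a value close to that of replicate 2, but its scaffold and vesicle means were both the lowest. Its vesicle mean was 6.68 against 6.90 to 7.06 in the other libraries, or 7.42 against 7.35 to 7.63 without Rab3c, Sv2c and Syn3. The members were also split at 5000 nt by their longest transcript of any type, 17 against 25. That puts Vamp1 and Snap91, whose coding transcripts are shorter, with the long ones. For long minus short members on this split, wild type replicate 1 was lowest, at -1.59 against -1.44 to -1.12. Without wild type replicate 1 the difference of the scaffold and vesicle medians was 0.27. With the length trend removed it was 0.12. No p is given, since the members were chosen with earlier results known.

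Transcript length and role went together in this list, and the fold change of a member tracked its transcript length. Over the 42 members the log2 fold change and log2 coding transcript length had a Pearson r of 0.72 and a Spearman rho of 0.76, across genes that share the same 8 libraries and are not independent replicates. Without wild type replicate 1 the values were 0.68 and 0.68. The same relation held across the other 13164 tested protein-coding genes, with r = 0.52 and rho = 0.59, or 0.28 and 0.37 without that library. Of the 9 members of at least 8000 nt (6 scaffold genes, Sv2c, Rab3c and Stxbp5), all 9 had a higher mean in knock-out and the median fold change was 0.33, or 0.16 without wild type replicate 1. Among other genes of that length 96.9% were higher, with a median of 0.26, or 0.15 without that library. Of the 18 members of 3000 to under 5000 nt, 13 were higher, with a median of 0.049, but 5 without wild type replicate 1, with a median of -0.073. Other genes of that class were higher in 58.8%, or in 49.1% without it. Of the 9 members of 1500 to under 3000 nt, 1 was higher and the median was -0.14, against 33.3% and -0.063 in other genes. At 5000 to under 8000 nt the 6 members had a median of 0.036 and 4 were higher, against 0.14 and 86.5% in other genes. Within that length class the scaffold genes Rims1 and Erc2 were at 0.20 and 0.18, and Syt2, Syt11, Syt7 and Sv2b at 0.058, 0.014, -0.016 and -0.047.

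**Figure D3:**
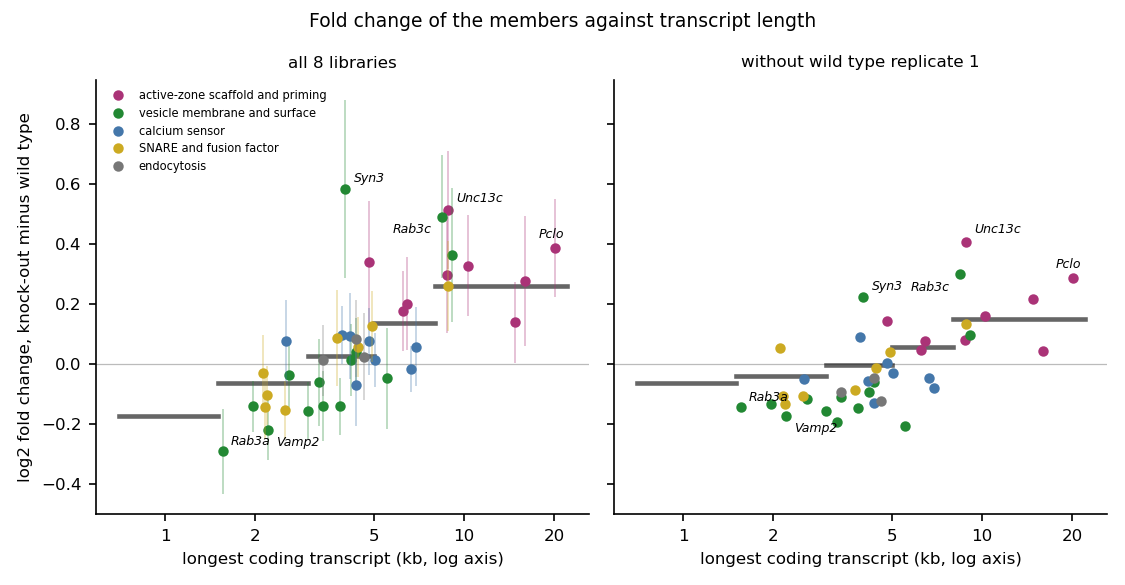
log2 fold change (knock-out minus wild type) of each member against its longest coding transcript (kb, log axis), with all 8 libraries at left (bars are limma SE) and without wild type replicate 1 at right. Colours are roles, and black steps are the medians of the other tested protein-coding genes in 5 length classes; the medians of the members are 0.33 for the 9 of at least 8000 nt and -0.14 for the 9 of 1500 to under 3000 nt, and at 5000 to under 8000 nt they lie below the step, at 0.036 against 0.14.

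The slope on length was then taken in each library. For the members, the slope of the deviation of a gene from its 8-library mean, in log2 units per doubling of transcript length, was -0.26, -0.10, -0.063 and 0.078 in wild type replicates 1 to 4 and 0.15, 0.11, -0.013 and 0.11 in knock-out replicates 1 to 4. In the other protein-coding genes the slopes were -0.25, -0.040, -0.015 and 0.081, then 0.092, 0.078, 0.0020 and 0.050. The order of the libraries was similar in both sets, but in the other genes wild type replicate 4 lay above knock-out replicates 2 and 4. In the members, knock-out replicates 1, 2 and 4 lay above every wild-type library, of which replicate 4 was the highest, and knock-out replicate 3 lay between wild type replicates 3 and 4. Why libraries differ in this slope was not tested.

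**Figure D4:**
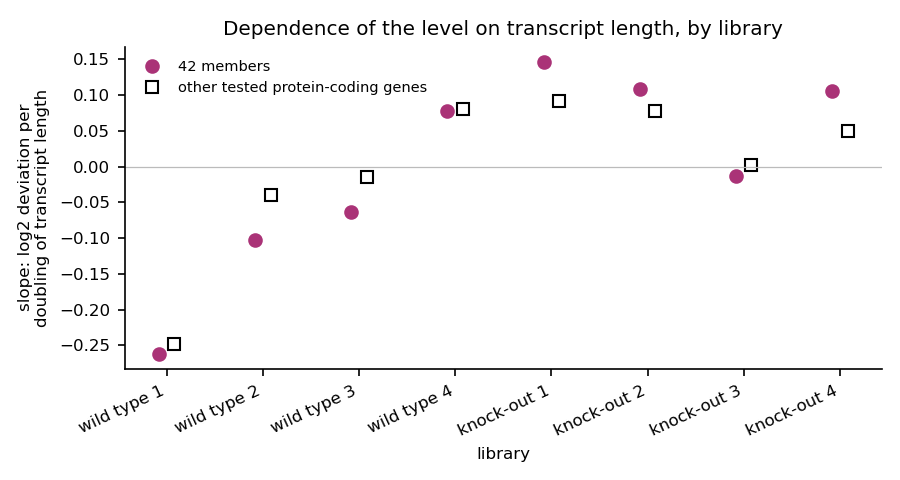
Slope of the log2 deviation of a gene from its 8-library mean on log2 transcript length, per library, for the 42 members (filled circles) and the 13164 other tested protein-coding genes (open squares). Wild type replicate 1 is lowest in both, at -0.26 and -0.25, and wild type replicate 4 lies with knock-out replicates 1, 2 and 4 above 0.

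The spread between libraries was wider in wild type. The median coefficient of variation of the members was 17.4% over the 4 wild-type libraries and 5.90% over the 4 knock-out libraries, against 16.8% and 9.85% over all genes tested. Without wild type replicate 1 the wild-type median was 8.73% in the members and 11.0% over all genes. In 36 of the 42 members the wild-type coefficient was the larger, or in 30 without wild type replicate 1, where 75.7% and 57.3% of all genes tested had the larger one in wild type. All 9 scaffold genes were among them in both cases, with medians of 25.1% in wild type (20.4% without replicate 1) and 8.67% in knock-out. Once replicate 1 was left out, the lowest wild-type value among the 9 was 5.95% for Erc1 and the highest 28.5% for Unc13c.

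A further 85 genes of vesicle release and recycling that are not among the 42 were read in the same fit, and 83 were tested. Their median log2 fold change was 0.029, or -0.037 without wild type replicate 1. Over all libraries 47 were higher and 36 lower, where 53.1% of all genes tested were higher, and 0 passed the adjusted test. At an unadjusted limma p under 0.05, 4 were higher and 2 lower in knock-out, beside 3.69% and 1.83% of all genes tested. Those of lowest p were Stxbp6 (amisyn, a SNARE-binding protein), the tomosyn gene Stxbp5l, the endocytic scaffold Itsn2 and the N-type calcium channel Cacna1b. Stxbp6 was at 31.3 to 38.5 FPKM in wild type and 39.7 to 45.5 in knock-out without overlap (0.27, SE 0.090, limma adjusted p = 0.62). Such a separation, found in 1.91% of all genes tested, was also found in Cacna1b and Itsn1. Sncb was separated the other way, as were 1.12% of all genes. The level of Stxbp5l was 1.30, 8.54, 6.44 and 5.89 FPKM in wild type and 16.99, 13.7, 7.34 and 9.66 in knock-out (1.10, SE 0.41), or 0.65 without wild type replicate 1. Itsn2 had a log2 fold change of 0.54 (SE 0.21) and Cacna1b one of 0.26 (SE 0.11), which were 0.34 and 0.15 without that library.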

How the data were processed

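The authors deposited FPKM per gene for each library, per the file headers, with a gene identifier and a locus. HISAT2, SAMtools and Cufflinks were used, per the submitters' processing notes; the sources used here give no versions, options or strand use. Those notes list mm8, but 91.5% of deposited loci with a symbol (35 of the 42 members) equalled GENCODE M21 on GRCm38, whose coordinates are given. The 7 members whose loci differed were Rims1, Rims2, Synpr, Rab3c, Syt4, Syt7 and Amph. Depth was estimated from steps of 1 fragment in low FPKM of genes with 1 transcript of at least 3000 nt (assumed fragment length 200 nt; 93.5% to 95.1% of values within 0.15 of a whole number, 30% by chance).

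limma 3.58.1 in R 4.3.3 (trend, robust, two-sided) was run on log2(FPKM + 1) for the 15061 genes with a mean of at least 1 FPKM. This scale understates changes of low genes. The fit was also run on simulated data with independent noise of equal spread in both genotypes. Such data lack the unequal spread and the length slopes of these libraries, so that run could not check the fit against them. Members, lists, roles and naming rule were chosen with earlier results of these data known. Fold changes are named for all scaffold members and, per other role, the most abundant member, the 3 of lowest p and the pairs Vamp1/Vamp2, Cplx1/Cplx2, Syt1/Syt2 and Syn1/Syn2; of the further release genes, the 4 of lowest p. The alternatives were another pseudocount, filters, scalings, moderation without trend, library weights, a removed length trend (lowess, span 0.3), a replicate block and each library left out. Part of the sequence matches is not reported here.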

Additional observations from a re-analysis of the deposited data

Results flagged for a closer look

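Within each genotype, a library was looked for whose distance to its nearest neighbour was unusually large for the whole range of the 4 libraries (Dixon's 95% critical value). There were 9 such cases among 96 groups examined, where chance gives about 1 in 20. Of these, 4 were wild type replicate 1. There, Nsf was at 518 FPKM (replicates 2 to 4: 804 to 856), Rph3a at 215 (321 to 329), Sv2c at 58.9 (117 to 129.5) and Rab3a at 637 (401 to 440.5). Knock-out replicate 3 was the outlying library in 4 cases. There, Syn2 was at 122 FPKM (the remaining replicates: 96.5 to 100.3), Stx1a at 24.45 (18.99 to 19.6), Doc2b at 4.14 (2.95 to 3.11) and the scaffold minus vesicle mean at -2.93 on the log2 scale (-2.68 in each). Syt4, at 36.0 FPKM in knock-out replicate 2 (34.5 to 34.7), varied little in the knock-out libraries as a whole.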

How the results depend on the processing

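With estimated library weights 1627 genes passed the adjusted limma threshold, 8 of them members: Pclo, Unc13a, Unc13b, Unc13c, Rab3c and Stxbp5 higher and Vamp1 and Napa lower in knock-out. Those weights were 5.09 for wild type replicate 3 and 0.153, 0.988 and 0.423 for wild type replicates 1, 2 and 4. With 1 library left out, 0 to 1 genes passed (1 without knock-out replicate 2), and the number of members at an unadjusted p under 0.05 ran from 0 (without wild type replicate 2, or knock-out replicate 1, 2 or 4) to 13 (without wild type replicate 4), where the share of all genes ran from 2.16% (without knock-out replicate 1) to 20.9%. The scaffold median then ran from 0.14 to 0.46, the vesicle median from -0.12 to 0.0063 and their difference from 0.27 to 0.51. With the length trend removed the scaffold median was 0.056 and the difference 0.12. In that fit 1 of the 42 members, Syt7 (-0.17), had an unadjusted limma p under 0.05, beside 4.73% of all genes tested. Of 252 values of named members under the settings that kept all libraries, 241 kept their sign. The others were, with the length trend removed, Bsn (-0.072), Pclo (-0.0059), Unc13b (-0.19), Syt2 (-0.11), Syt11 (-0.069) and Dnm1 (-0.037); with weights, Syt2 (-0.046), Syt11 (-0.073), Amph (-0.059) and Dnm1 (-0.054); and with quantile normalization Cplx1 (0.019). Of 224 values with 1 library left out, 213 kept their sign, and the ranges that crossed 0 were -0.19 to 0.025 for Syn1, -0.079 to 0.13 for Syt2, -0.029 to 0.052 for Syt11, -0.055 to 0.15 for Rph3a, -0.047 to 0.16 for Snap91, -0.091 to 0.076 for Amph and -0.12 to 0.11 for Dnm1. Quantile normalization gave 30 of 42 members higher in knock-out, against 27. The cause of these shifts was not tested. The replicate block gave 0 genes past the threshold and 3 members at an unadjusted p under 0.05 (Rab3c, Unc13a and Unc13c), beside 5.25% of all genes; libraries with the same number had deviations correlated at -0.108, -0.055, 0.024 and 0.144, so the numbers were not taken as pairs. Splitting the members at a longest transcript of 5000 nt gave a difference of medians of 0.19, and adding the synaptotagmins to the short group 0.31.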
